A study of Homo sapiens with 12 samples.

Results

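The 35 genes described here are protein-coding genes whose coding sequence lies in a single exon. They were taken by name from the coding rows of the deposited count tables, in which 18650 coding genes were measured. In GENCODE release 29, 34 of the 35 had 1 coding exon in every coding transcript, and EID1 also had a transcript with 2 coding exons. No protein-coding transcript of 32 of the genes had an intron anywhere. PIGW had an intron outside its coding part in every protein-coding transcript, and CLDN4 in some of its protein-coding transcripts. Each gene was represented by 1 interval of 3′ UTR, so no member's counts rest on joining intervals of different transcripts.

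The measurements came from SLAM-seq of the human prostate cancer line 22Rv1, which had been gene-edited so that the splicing factor SF3B1 carries the substitution C1111S (serine in place of a cysteine). All 12 libraries came from these edited cells, and cells with unedited SF3B1 were not analysed here. The 4 groups of 3 libraries received DMSO (0.1% by volume), the stereoprobe WX-02-23 (20 µM), the stereoprobe WX-02-43 (20 µM) or PladB (10 nM). The compounds were on the cells for 3 h, and 100 µM 4-thiouridine was then given for 1 h. The labels do not say whether the edited line is 1 clone or whether replicates were separate cultures, so p-values measure the spread between these libraries, which may be technical.

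Most human coding genes are interrupted by introns, and the spliceosome cuts these out before the mRNA is complete. SF3B1 is the largest subunit of SF3b, the part of the U2 particle that holds the branch point of the intron, and PladB (pladienolide B) binds SF3B1 and blocks splicing. A transcript without introns needs no such step. Many intronless genes encode short-lived regulators, among them some transcription factors of the C/EBP, FOX and SOX families. Some Frizzled receptors of the Wnt pathway, small GTPases and replication-independent histones are also encoded without introns, while others of these families have them.

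4-thiouridine enters RNA made while it is present, and after alkylation with iodoacetamide it is sequenced as C in place of the T of the genome. A read with such a change is a T>C read here and stands for newly made RNA. No subtraction was made for T>C reads that arise from sequencing errors or sequence variants, since libraries without 4-thiouridine were not analysed here. Values are given on 3 scales, each as CPM, the count scaled to the library's size, with n = 3 libraries per group. T>C reads scaled to T>C reads compare a gene with the rest of the newly made RNA. T>C reads scaled to all reads keep a fall in newly made RNA as a whole in the value. All reads hold old and new RNA together. The labelled share is the percentage of a gene's reads that are T>C reads. A gene "rose" or "fell" only where edgeR's quasi-likelihood test gave a Benjamini-Hochberg adjusted p under 0.05 over all tested coding genes, and every adjusted p below is from that test.

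Library totals ran from 24670716 to 42190854 reads, with 12331501 to 21414162 reads and 826620 to 2094217 T>C reads on coding genes. KRT5, a basal cell marker, was at 0, and PECAM1 and PTPRC, of endothelium and blood, were at or below 0.896 CPM of all reads. COL1A1, a collagen of fibroblasts, was at 2.14 to 10.8 CPM, and its part in the results was not tested. Of the 35 genes, 33 had enough T>C reads to be tested (all but FOXQ1 and SOX21), and 34 had enough reads in all (all but FOXQ1). The members had more T>C reads than most: the median over tested members was 188 T>C reads per library, against 50.3 over all tested genes. Counts of calls after PladB are therefore also given below for genes with a mean of at least 100 T>C reads, a subset chosen after the data were seen. The median 3′ UTR interval was 1389 bases for the members and 1415 for tested genes, and its T content 30.6% and 30.4%. At most 1.31% of a member's reads (PURA) mapped to several places. ZXDA with ZXDB, and KBTBD6 with KBTBD7, are close copies, and of their counted reads 0% for ZXDA and ZXDB, 0.0645% for KBTBD6 and 0.288% for KBTBD7 mapped to several places.

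The stretch of DNA just before a gene's start holds the elements that set its transcription, and RefSeq (GRCh38.p14) gave it for 27 of the 35 genes. The sequences below belong to the genes whose newly made RNA rose or fell after PladB relative to other newly made RNA. They are shown because these members moved in the same comparison, and a reader may want the regulatory sequence of each. Each line holds the 100 bases before the start, 5′ to 3′ on the gene's strand, and capitals mark matches on either strand to TATAAA (the TATA box), CCAAT (the CCAAT box) and GGGCGG (the GC box). EID1 and KBTBD7 belong to the same set.
RHOB (chr2:20446974-20447073, plus strand): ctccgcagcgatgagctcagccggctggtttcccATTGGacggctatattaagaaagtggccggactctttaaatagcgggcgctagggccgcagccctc
H1FX (chr3:129316287-129316386, minus strand): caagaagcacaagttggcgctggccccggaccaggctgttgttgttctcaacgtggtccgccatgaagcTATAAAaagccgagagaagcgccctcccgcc
H2AFX (chr11:119095466-119095565, minus strand): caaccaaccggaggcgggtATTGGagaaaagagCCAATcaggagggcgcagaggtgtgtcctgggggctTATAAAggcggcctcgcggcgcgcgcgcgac
PURB (chr7:44885531-44885630, minus strand): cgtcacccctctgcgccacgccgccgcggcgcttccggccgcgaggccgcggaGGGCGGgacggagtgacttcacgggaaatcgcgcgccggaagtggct
KTI12 (chr1:52033811-52033910, minus strand): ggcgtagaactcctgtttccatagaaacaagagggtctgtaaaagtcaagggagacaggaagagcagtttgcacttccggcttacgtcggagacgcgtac
KBTBD6 (chr13:41132803-41132902, minus strand): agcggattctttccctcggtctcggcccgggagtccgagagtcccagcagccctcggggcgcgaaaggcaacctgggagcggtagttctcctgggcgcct
ZXDB (chrX:57591911-57592010, plus strand): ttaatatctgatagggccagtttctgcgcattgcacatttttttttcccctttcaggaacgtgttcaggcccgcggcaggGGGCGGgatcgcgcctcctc
FOXD1 (chr5:73448778-73448877, minus strand): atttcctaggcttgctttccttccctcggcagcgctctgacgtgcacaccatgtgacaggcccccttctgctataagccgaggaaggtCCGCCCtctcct

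H1FX and H2AFX, both histone genes, each had a TATAAA match, H2AFX also had 2 matches to CCAAT, and RHOB had 1. PURB, ZXDB and FOXD1 each had a GGGCGG match, and KTI12 and KBTBD6 had no match to the 3 motifs in this window. The marked matches do not overlap each other. Over the 27 members with a sequence, TATAAA was found in 5 (18.5%), CCAAT in 8 (29.6%) and GGGCGG in 16 (59.3%). Over 15843 promoters of coding genes in windows of the same length the shares were 5.47%, 21.0% and 42.9%. A match is a description of the sequence only.

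PladB was compared with DMSO to see how RNA that needs no splicing between its coding parts behaved when an SF3B1 inhibitor was present. Relative to other newly made RNA, 9 of the 33 tested members (27.3%) rose and 1 fell: EID1, H1FX, H2AFX, KBTBD6, KBTBD7, KTI12, PURB, RHOB and ZXDB rose, and FOXD1 fell. Over all 10722 tested genes 4.72% rose and 5.91% fell. The median log2 change was 0.41 over the members and -0.36 over all tested genes, and 26 of 33 members lay above the all-gene median. Among genes with a mean of at least 100 T>C reads, 8 of 24 members (33.3%) rose, against 15.4% of 3153 genes, and 1 member fell, against 9.07%. At that depth the median log2 change was 0.59 over the members and 0.13 over all genes. In these bulk libraries, fewer cells making a transcript and less of it per cell cannot be told apart.

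The choice of scale changed this count. Scaled to all reads, T>C reads as a whole were lower after PladB, with the all-gene median at -1.15 in place of -0.36. Less newly made RNA and less label in each new molecule cannot be told apart from T>C reads. On that scale 1 of the 33 members (ZXDB) rose and 6 fell: CLDN4, FOXD1, FZD7, FZD8, H1F0 and PURA. Over all genes 0.793% rose and 16.3% fell. Among genes with at least 100 T>C reads on average, 0 of 24 members rose and 6 fell (25%), against 2.51% and 28.6% of 3153 genes, so the share that fell was near the background. The members' median was -0.40, and 26 of 33 again lay above the all-gene median. With at least 100 T>C reads the medians were -0.22 over the members and -0.66 over all genes. The 9 genes that rose relative to other newly made RNA had log2 changes from 0.20 (KBTBD7) to 1.78 (ZXDB) on this scale, all above 0, and of them only ZXDB passed the test. In all reads, 11 of 34 members (32.4%) rose and 2 fell (5.88%), against 13.9% and 16.3% of 13178 genes, and the median was 0.20 against -0.07. At 100 T>C reads or more the difference from other genes was smaller. There 11 of 24 members rose (45.8%) and 2 fell (8.33%), against 35.4% and 20.4% of 3153 genes. The medians at that depth were 0.40 over the members and 0.18 over all genes. The share that rose was near the 46.7% of 754 genes of that depth with 2 to 4 coding exons. It was 38.7% of 1090 genes with 5 to 9 coding exons and 22.0% of 1042 with 10 or more. Of 77 other single-exon genes with no intron in a protein-coding transcript, 51.9% rose.

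**Figure D1:**
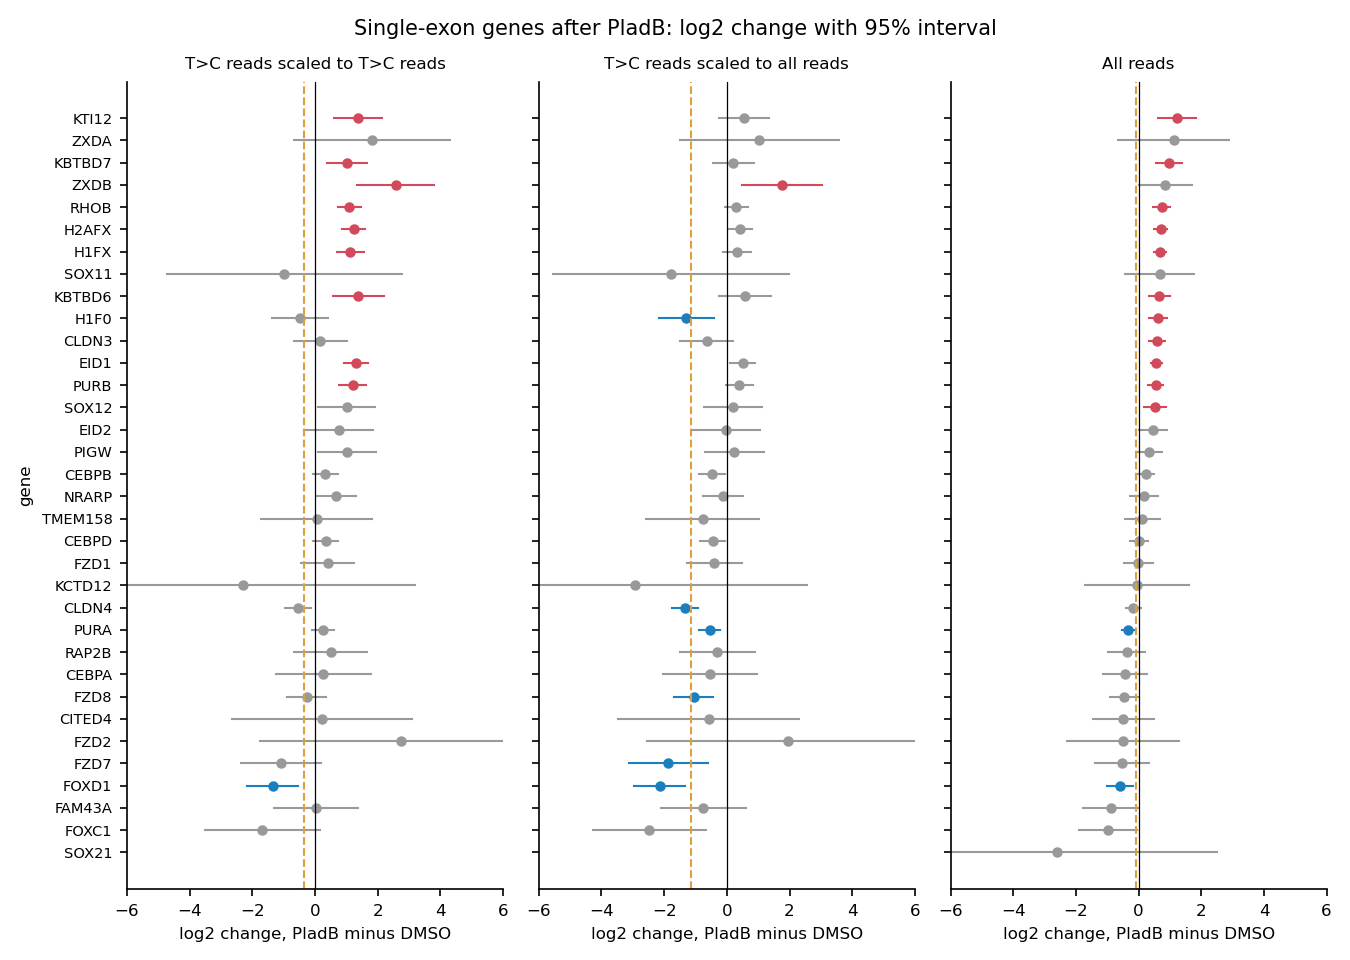
Log2 change of each tested member after PladB (points, horizontal axis, PladB minus DMSO) with its 95% interval (lines), on the 3 scales, 1 panel each. Red points rose, blue points fell and grey points did not pass the test. The dashed line is the median of all tested genes, at -0.36, -1.15 and -0.07, and intervals that run past 6 units are clipped. Of the 9 red genes on the left 8 are also red on the right, while the middle panel has 1 red and 6 blue points.

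The histone genes H1FX, H1F0 and H2AFX, which lie outside the histone gene clusters and can give polyadenylated mRNA, did not move alike. H2AFX encodes the H2A variant that is phosphorylated beside DNA breaks (chr11:118964584-118965672 in hg19, as are all 3′ UTR positions below). Its T>C reads scaled to T>C reads were 700.1, 716 and 753 CPM in DMSO and 1740.4, 1683 and 1667 CPM after PladB. The groups were far apart and tight, at 723 ± 27.0 and 1697 ± 38.6 (SD, n = 3), a log2 change of 1.23 (SE 0.18, edgeR adjusted p = 7.53e-06). H1FX, a linker histone (chr3:129033614-129034103), had 301, 319.8 and 353 CPM in DMSO and 698, 729.8 and 699 CPM after PladB. Every PladB library was thus above every DMSO library, with a log2 change of 1.13 (SE 0.22, edgeR adjusted p = 0.000372). In all reads H2AFX went from 354 ± 44.3 to 579 ± 36.8 CPM and H1FX from 360.1 ± 18.2 to 578 ± 41.2 CPM, rises of 0.71 and 0.68 on the log2 scale (edgeR adjusted p = 1.25e-06 and 6.46e-07).

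H1F0, the linker histone of resting and differentiated cells (chr22:38202137-38203443), gave opposite calls in new and in total RNA. Scaled to all reads, its T>C reads were 12.8, 11.4 and 17.6 CPM in DMSO and 4.51, 6.93 and 5.68 CPM after PladB. The highest PladB library was below the lowest DMSO library, with a log2 change of -1.29 (SE 0.44, edgeR adjusted p = 0.0379). Leaving out DMSO replicate 1 (0.0654), DMSO replicate 3 (0.156), PladB replicate 1 (0.109) or PladB replicate 3 (0.0722) ended the call. So did a plain sum of all intervals of each gene, overlapping ones included (0.0542). All reads of H1F0 were 93.1, 104 and 85.7 CPM in DMSO and 143, 136 and 156 CPM after PladB, again without overlap and in the other direction. This rise of 0.62 on the log2 scale (SE 0.14, edgeR adjusted p = 0.000718) was called in every fit that left out 1 library. Relative to other newly made RNA its log2 change was -0.49 with an interval from -1.37 to 0.40 and passed no test.

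RHOB is a small GTPase of endosomes and the cell cortex whose mRNA is induced early by growth factors and stress (chr2:20647818-20649206). It had 505, 635 and 590.2 CPM of T>C reads scaled to T>C reads in DMSO and 1239, 1121 and 1341 CPM after PladB. The lowest PladB library was well above the highest DMSO library, with a log2 change of 1.10 (SE 0.18, edgeR adjusted p = 4.56e-05). All reads rose as well, from 90.7 ± 5.67 to 152 ± 13.4 CPM (log2 change 0.74, edgeR adjusted p = 2.85e-05). With all reads as the scale, the change in its T>C reads was 0.30 (edgeR adjusted p = 0.238) and was not called, although its groups did not overlap. The other small GTPase of the set, RAP2B, had a log2 change of 0.50 relative to other newly made RNA, with an interval from -0.68 to 1.67. NRARP, which damps Notch signalling, had 281, 183 and 212 CPM in DMSO and 386, 357 and 336 CPM after PladB, groups without overlap that did not pass the adjusted test (0.166).

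Frizzled proteins are the receptors for Wnt ligands, and FZD1, FZD2, FZD7 and FZD8 are members. FZD8 (chr10:35927177-35928272) had 24.9, 24.9 and 33.6 CPM of T>C reads scaled to all reads in DMSO and 14.8, 16.6 and 8.74 CPM after PladB. The PladB libraries were all lower, and the log2 change was -1.05 (SE 0.31, edgeR adjusted p = 0.0154). FZD7 (chr2:202901096-202903160) had 3.43, 6.86 and 5.66 CPM in DMSO and 1.56, 0.884 and 1.89 CPM after PladB on the same scale, a log2 change of -1.87 (SE 0.62, edgeR adjusted p = 0.0329). Its groups also did not overlap, but its values rest on few reads. The FZD8 call was lost without DMSO replicate 3 (0.0773) or PladB replicate 3 (0.082), and the FZD7 call without DMSO replicate 2 (0.0986), DMSO replicate 3 (0.0716), PladB replicate 1 (0.0547) or PladB replicate 2 (0.0717). Relative to other newly made RNA neither was called, with log2 changes of -0.27 for FZD8 and -1.08 for FZD7. FZD1 was at 0.41 on that scale (edgeR adjusted p = 0.622). FZD2 had the largest positive log2 change of the set but almost no new RNA to measure. Its raw T>C read counts were 0, 0 and 10 in DMSO and 32, 0 and 8 after PladB, overlapping groups with no call.

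Among regulators of transcription, PURB and EID1 rose on 2 of the 3 scales. PURB (chr7:44915892-44924008) binds purine-rich single-stranded DNA and RNA. Its T>C reads scaled to T>C reads were 394, 315 and 345 CPM in DMSO and 843, 834 and 739 CPM after PladB, without overlap, a log2 change of 1.20 (SE 0.21, edgeR adjusted p = 0.000109). Its all-read level went from 180.0 ± 8.18 to 262 ± 13.7 CPM (log2 change 0.54, edgeR adjusted p = 0.000232). EID1 (chr15:49170938-49172380) inhibits the EP300 and CREBBP acetyltransferases. It had 557, 466 and 575 CPM in DMSO and 1499.5, 1029 and 1426 CPM after PladB, all 3 PladB libraries above DMSO, a log2 change of 1.31 (SE 0.19, edgeR adjusted p = 4.9e-06). In all reads EID1 rose from 539 ± 15.3 to 796 ± 68.8 CPM (log2 change 0.56, edgeR adjusted p = 2.6e-06). EID2, its relative, was at 0.78 in new RNA with an interval from -0.30 to 1.85.

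PURA, the close relative of PURB (chr5:139494736-139499001), went the other way in total RNA. All reads of PURA were 429, 527 and 424 CPM in DMSO and 380.1, 355 and 353 CPM after PladB, so that every PladB library was lower, a log2 change of -0.34 (SE 0.10, edgeR adjusted p = 0.00495). Without DMSO replicate 2 (0.0506) this call was lost. T>C reads of PURA scaled to all reads also fell, from 78.8, 89.1 and 83.6 CPM to 50.3, 64.5 and 56.7 CPM, a log2 change of -0.55 (SE 0.17, edgeR adjusted p = 0.0231) that was lost without DMSO replicate 2 (0.0627), DMSO replicate 3 (0.0534), PladB replicate 1 (0.0909) or PladB replicate 3 (0.0506). Relative to other newly made RNA PURA had 807, 973 and 874 CPM in DMSO and 896, 1171 and 1078 CPM after PladB, overlapping groups with a log2 change of 0.24 (edgeR adjusted p = 0.4).

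ZXDB and ZXDA belong to a zinc finger family known for acting with CIITA on MHC class II genes, and both lie on chromosome X. ZXDB (chrX:57620894-57623910) had 12.7, 20.3 and 41.1 CPM of T>C reads scaled to T>C reads in DMSO and 152, 143 and 147 CPM after PladB. The lowest PladB value was over 3 times the highest in DMSO, with a log2 change of 2.57 (SE 0.61, edgeR adjusted p = 0.00362). Behind these values were 22, 29 and 66 raw T>C reads in DMSO and 153, 107 and 106 after PladB. ZXDB was the member that also rose when scaled to all reads, from 1.24, 1.86 and 3.93 CPM to 8.52, 7.88 and 7.72 CPM (log2 change 1.78, edgeR adjusted p = 0.0466). That call was lost without DMSO replicate 1 (0.172), DMSO replicate 2 (0.121), PladB replicate 1 (0.087), PladB replicate 2 (0.0502) or PladB replicate 3 (0.0738), and also with a plain sum of intervals (0.0639) or no filter on low counts (0.0575). ZXDA had 11, 8 and 48 raw T>C reads in DMSO and 33, 78 and 9 after PladB, overlapping groups that passed no test.

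The FOX genes of the set encode forkhead transcription factors, and FOXD1 (chr5:72742083-72742791) was the only member to fall on all 3 scales. Its T>C reads scaled to T>C reads were 196, 161 and 293 CPM in DMSO and 122, 36.1 and 96.8 CPM after PladB. The PladB libraries were all lower but spread widely, and the log2 change was -1.34 (SE 0.40, edgeR adjusted p = 0.0237). This call did not survive leaving out DMSO replicate 3 (0.141) or PladB replicate 2 (0.0967). Scaled to all reads the values were 19.1, 14.7 and 28.0 CPM and 6.85, 1.99 and 5.10 CPM, a log2 change of -2.14 (SE 0.40, edgeR adjusted p = 0.000222) that was called in every fit that left out 1 library. All reads went from 51.7, 39.3 and 66.9 CPM to 32.9, 38.3 and 34.4 CPM (log2 change -0.58, edgeR adjusted p = 0.027), a call lost without DMSO replicate 1 (0.0519), DMSO replicate 3 (0.244), PladB replicate 1 (0.0889) or PladB replicate 3 (0.0645). FOXC1 had 56, 49 and 100 raw T>C reads in DMSO and 27, 0 and 9 after PladB, lower in each PladB library, but its log2 change scaled to all reads, -2.47, just missed the threshold (edgeR adjusted p = 0.0518). FOXQ1 had no read in any DMSO, WX-02-43 or PladB library.

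C/EBP proteins are bZIP transcription factors of differentiation and the acute-phase response. CEBPB had 587, 572 and 600.1 CPM of T>C reads scaled to T>C reads in DMSO and 569.9, 966 and 679 CPM after PladB. CEBPD had 519, 651 and 629 CPM and 826, 646 and 802 CPM. In both genes the groups overlapped, and neither change passed the test (0.33 for CEBPB and 0.34 for CEBPD on the log2 scale, edgeR adjusted p = 0.319 and 0.293). With all reads as the scale they were at -0.47 and -0.46 (edgeR adjusted p = 0.111 and 0.103). CEBPA was at 0.27 relative to other newly made RNA, with an interval from -1.23 to 1.77. Of the SOX genes, SOX12 rose in all reads, from 70.2, 99.2 and 69.1 CPM in DMSO to 113, 95.5 and 133 CPM after PladB. PladB replicate 2 lay below the highest DMSO library, and the call (log2 change 0.52, SE 0.17, edgeR adjusted p = 0.0157) ended without DMSO replicate 1 (0.0935), DMSO replicate 3 (0.0904) or PladB replicate 3 (0.128). In new RNA SOX12 was at 1.01 (edgeR adjusted p = 0.157). SOX11 and SOX21, factors of neural progenitors, had too few T>C reads for a statement, at most 29 in a DMSO library and at most 11 in a PladB library. CITED4, a co-activator of CREBBP and EP300, was at 0.23 with an interval from -2.64 to 3.11.

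KBTBD6 and KBTBD7 are neighbours on chromosome 13 and encode adaptors of a CUL3 ubiquitin ligase that acts on the RAC1 activator TIAM1. KBTBD6 (chr13:41701709-41704622) had 81.2, 189.6 and 66.7 CPM of T>C reads scaled to T>C reads in DMSO and 267, 270.0 and 339 CPM after PladB. KBTBD7 (chr13:41765527-41766338) had 198, 157 and 251 CPM and 393, 408 and 416 CPM. In neither gene did the groups overlap, and the PladB libraries of KBTBD7 were close together. The log2 changes were 1.38 (SE 0.40, edgeR adjusted p = 0.0197) and 1.01 (SE 0.31, edgeR adjusted p = 0.0312). The KBTBD6 call was lost without DMSO replicate 1 (0.0963), DMSO replicate 3 (0.114) or PladB replicate 3 (0.0648), and the KBTBD7 call without DMSO replicate 1 (0.0853), DMSO replicate 2 (0.138), PladB replicate 1 (0.0512) or PladB replicate 3 (0.0653). In all reads KBTBD6 rose from 65.0, 55.9 and 55.7 CPM to 97.9, 92.0 and 90.0 CPM (log2 change 0.66, edgeR adjusted p = 0.00182). KBTBD7 rose from 48.7, 41.8 and 47.6 CPM to 95.4, 97.0 and 79.2 CPM (log2 change 0.98, edgeR adjusted p = 0.000186). Both all-read calls held in every fit that left out 1 library. KCTD12, another BTB-domain gene, had 0, 18 and 0 raw T>C reads in DMSO and 1, 1 and 0 after PladB.

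CLDN3 and CLDN4 are neighbours on chromosome 7 and encode claudins, the proteins that seal tight junctions between epithelial cells. CLDN4 (chr7:73246162-73247023) had 58.7, 73.4 and 67.2 CPM of T>C reads scaled to all reads in DMSO and 23.2, 23.4 and 32.2 CPM after PladB. Every PladB library was below every DMSO library by a wide margin, and the log2 change of -1.34 (SE 0.20, edgeR adjusted p = 8.17e-06) was called in every fit that left out 1 library. Relative to other newly made RNA it was at -0.54 (edgeR adjusted p = 0.0815), and its all reads were 207, 281 and 208 CPM in DMSO and 195, 213 and 213 CPM after PladB, which overlapped. CLDN3 (chr7:73183327-73183716) rose in all reads, from 145, 149 and 181 CPM to 218, 261 and 236 CPM (log2 change 0.59, SE 0.12, edgeR adjusted p = 0.000187). In new RNA the 3 PladB libraries of CLDN3 disagreed, with 162, 48.1 and 267 CPM of T>C reads scaled to T>C reads against 123, 165 and 137 CPM in DMSO.

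KTI12, the relative of a yeast partner of Elongator, the complex that modifies transfer RNAs (chr1:52497777-52498368), had 157, 89.6 and 164 CPM of T>C reads scaled to T>C reads in DMSO and 374, 262 and 425 CPM after PladB. The groups did not overlap, with a log2 change of 1.37 (SE 0.37, edgeR adjusted p = 0.0118), which no longer passed without DMSO replicate 2 (0.0757) or PladB replicate 3 (0.066). All reads of KTI12 were 16.0, 12.9 and 18.1 CPM in DMSO and 37.1, 29.7 and 43.2 CPM after PladB, and this rise of 1.22 on the log2 scale (SE 0.30, edgeR adjusted p = 0.00161) was called in every fit that left out 1 library. PIGW, an acyltransferase of GPI anchor synthesis, was at 1.03 in new RNA (edgeR adjusted p = 0.152), with every PladB library above every DMSO library. FAM43A and TMEM158 had log2 changes of 0.03 and 0.05, with intervals from -1.31 to 1.38 and from -1.73 to 1.83.

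**Figure D2:**
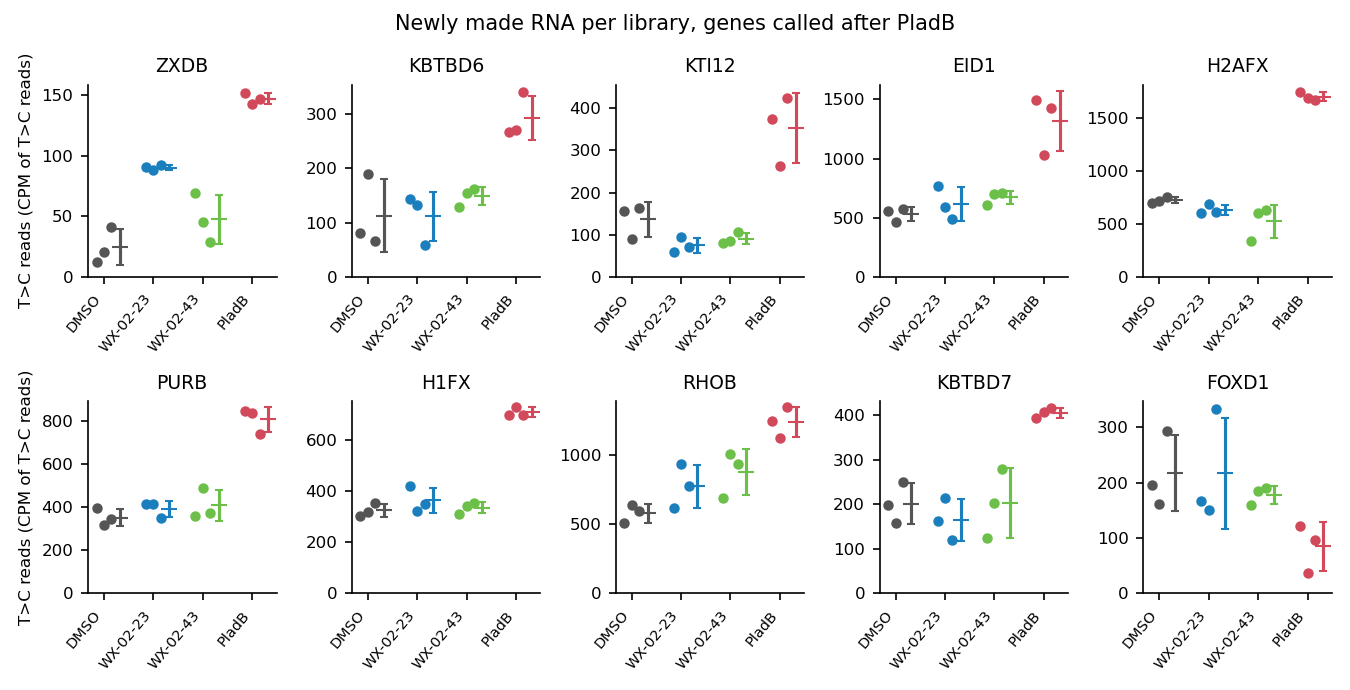
T>C reads scaled to T>C reads (CPM, vertical axis starting at 0) in each of the 12 libraries for the 10 members called after PladB, 1 panel per gene. Points are libraries and the bar beside them is the mean ± SD of 3 libraries. In 9 panels the PladB libraries sit above all DMSO libraries, and in the FOXD1 panel they sit below.

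The labelled share tells how much of a transcript's pool is new. Over all coding genes together it was 9.45% ± 0.430 in DMSO, 9.64% ± 0.218 after WX-02-23, 9.10% ± 0.277 after WX-02-43 and 5.44% ± 0.191 after PladB (SD, n = 3). The 3 PladB libraries were all below the 3 DMSO libraries (exact two-sided permutation p = 0.1, adjusted over 4 comparisons 0.267), and 0.1 is the smallest p that 3 libraries against 3 can give. The other 3 comparisons gave exact permutation p-values of 0.2 to 0.7. Among the 30 members with a mean of at least 100 reads the median share was 28.7% in DMSO, against 9.18% over 9980 genes of that depth, and 28 of the 30 were above that all-gene median. H1FX and CLDN3 were the 2 members below it. Other single-exon genes were also high, with a median of 20.6% and 299 of 352 above the all-gene median. The members' median was 28.4% after WX-02-23, 27.3% after WX-02-43 and 17.0% after PladB.

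The highest shares belonged to KTI12, FZD8, CEBPD, RHOB and NRARP. RHOB had 58.2, 60.6 and 61.6% labelled reads in DMSO and 44.1, 45.4 and 43.9% after PladB. CEBPD had 56.5, 61.5 and 63.4% and 43.0, 45.2 and 43.3%. KTI12 had 95.4, 63.4 and 86.5% and 56.5, 48.6 and 51.8%, where DMSO replicate 2 was far from the other DMSO libraries. In all 3 genes the PladB libraries were lower without overlap, and yet the share stayed well above the all-gene medians.

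The distance between DMSO and PladB differed from member to member. CLDN4 had 28.4, 26.1 and 32.3% in DMSO and 11.9, 11.0 and 15.2% after PladB. H1F0 had 13.7, 11.0 and 20.5% and 3.16, 5.09 and 3.63%. EID1, whose total RNA rose, had 10.2, 8.08 and 9.87% and 9.89, 7.89 and 9.19%, which overlapped. ZXDB had 13.9, 52.7 and 24.5% and 45.0, 43.0 and 53.8%, overlapping as well. In 12 of the 30 members (40.0%) the PladB libraries were all below the DMSO libraries and in 0 all above, against 34.4% below over all genes, a share near the background. The median ratio of the PladB share to the DMSO share was 0.737 over the members, 0.636 over other single-exon genes and 0.489 over all genes.

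**Figure D3:**
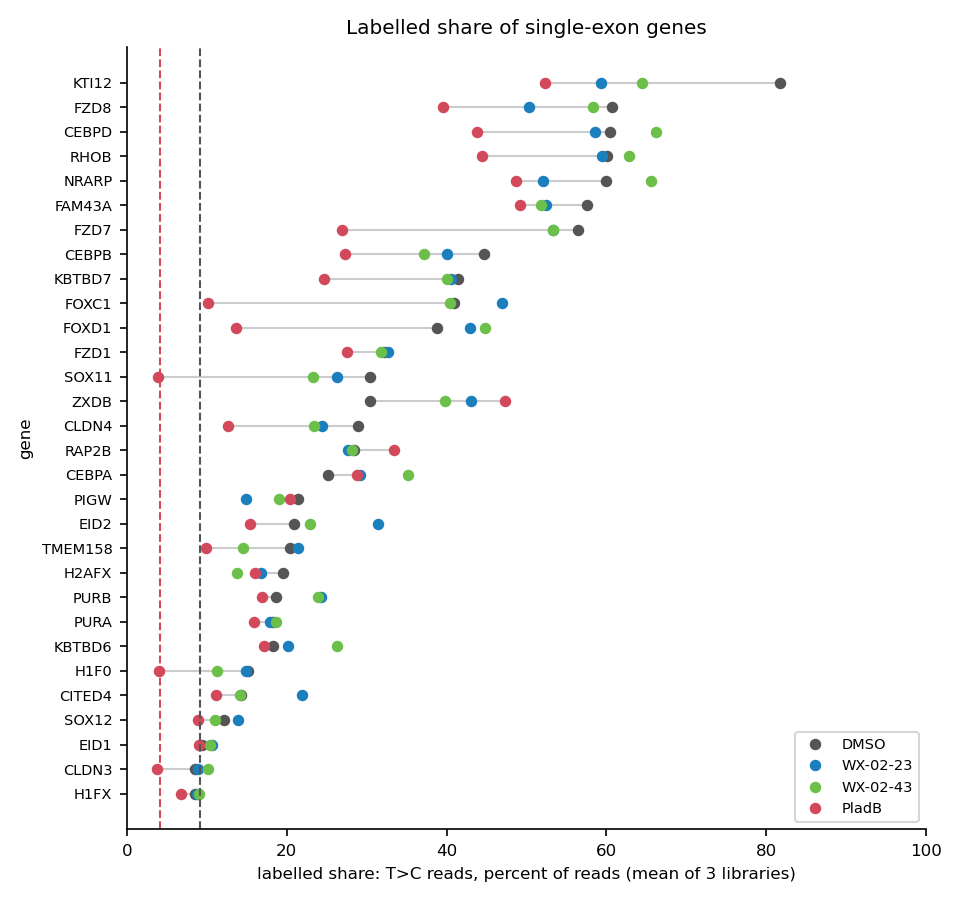
Labelled share (percent of reads that are T>C reads, horizontal axis) of the 30 members with a mean of at least 100 reads, as the mean of 3 libraries for each of the 4 groups. The dashed lines are the all-gene medians in DMSO (9.18%) and after PladB (4.15%), and a grey line joins DMSO and PladB. Most PladB points lie left of the DMSO points, by a small distance for EID1 and a large one for FOXD1 and FOXC1.

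The number of coding exons was then set beside these changes for every gene with exon numbers. Counts and medians are given without a test, since genes are not replicates. A gene was placed by the largest number of coding exons in any of its protein-coding transcripts. After PladB, relative to other newly made RNA, 54 of 460 other single-exon genes rose (11.7%) and 13 fell (2.83%). These 460 leave out the clustered histone genes. They divided by whether any protein-coding transcript had an intron, a split made after the data were seen. Of 163 with no intron, 37 rose (22.7%), 0 fell and the median log2 change was 0.79. Of 297 with an intron in some transcript, 17 rose and 13 fell, with a median of -0.24. The median was -0.09 over 1955 genes with 2 to 4 coding exons, -0.21 over 3376 with 5 to 9 and -0.71 over 4659 with 10 or more. The share that rose went from 8.39% over 5.27% to 1.78% in the same order, and the share that fell was 5.01%, 4.68% and 7.51%. Depth fell in that order too, with a median of 68.8, 57.0 and 41.3 T>C reads per library. Among genes with a mean of at least 100 T>C reads, the median changes of these exon groups were 0.30, 0.16 and -0.17. At that depth 21.1%, 15.4% and 7.58% rose, and 7.56%, 7.43% and 13.1% fell.

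The members thus lay between the other intronless genes and the genes of few exons, with a median of 0.41. Among genes with a mean of at least 100 T>C reads, 36 of 77 other intronless genes rose (46.8%) against 8 of 24 members. Their medians at that depth were 0.96 and 0.59. JUN, IER2 and SOX4 were among the other single-exon genes that rose, the first 2 being immediate early genes. JUN had 1084 ± 103 in DMSO and 3796 ± 611 after PladB (log2 change 1.81) and IER2 1390.4 ± 79.3 in DMSO and 3016 ± 63.1 after PladB (log2 change 1.12), in CPM of T>C reads scaled to T>C reads (SD, n = 3). SOX4, the single-exon relative of SOX12, was at 0.92, and NACA2 at 0.92.

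**Figure D4:**
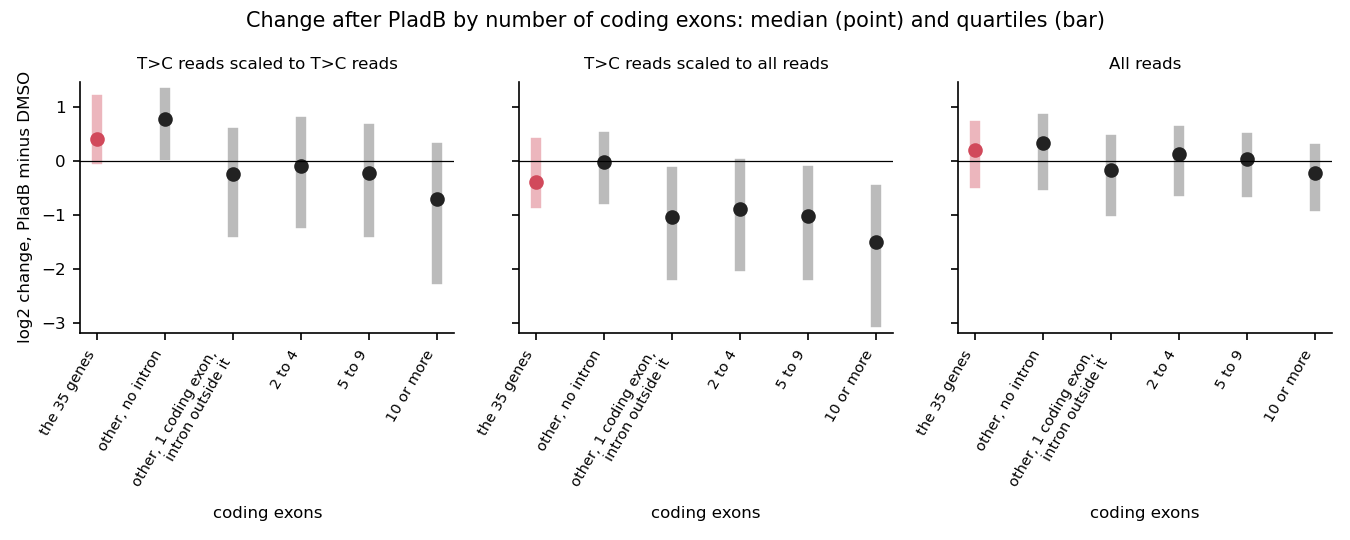
Log2 change after PladB (vertical axis, PladB minus DMSO) on the 3 scales for the 35 genes (red; 33 or 34 tested) and for other coding genes by number of coding exons. Points are medians and bars run from the lower to the upper quartile. In each panel the highest median is that of other genes with no intron, and the lowest is that of genes with 10 or more coding exons.

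Spliced relatives give a second view, because they share a family with the members and carry introns. The list held 40 genes, of which CLDN12 and CEBPG had a single coding exon and were taken out. Of the 37 relatives tested, 5 rose and 2 fell relative to other newly made RNA, with a median log2 change of 0.04. Over all tested genes 4.72% rose and 5.91% fell, with a median of -0.36. RHOA, the spliced relative of RHOB, had 884 ± 106 CPM of T>C reads scaled to T>C reads in DMSO and 2129 ± 565 CPM after PladB (log2 change 1.27), beside 1.10 for RHOB. H2AFV, a spliced H2A variant gene, had 588 ± 61.6 in DMSO and 1534 ± 163 after PladB (log2 change 1.38), beside 1.23 for H2AFX. CLDN7 (0.90), FOXA1 (0.49) and CITED2 (0.47) were the others that rose, and FOXK2 (-2.33) and FOXO3 (-2.22) fell. Scaled to all reads, 1 relative rose and 10 fell, where 0.793% and 16.3% of all genes did. In all reads 11 of 38 rose and 9 fell, against 11 and 2 of 34 members. Over all genes 13.9% rose and 16.3% fell in all reads. The relatives were not matched to the members in depth, and whether the members differ from them was not tested.

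The stereoprobes WX-02-23 and WX-02-43 were compared with DMSO and with each other at the same dose and time. None of the 33 members was called in any of their 6 comparisons of T>C reads by edgeR. Relative to other newly made RNA, 3 members had an unadjusted p under 0.05 for WX-02-23, 2 for WX-02-43 and 2 between the probes, and scaled to all reads 3, 3 and 1. The shares of all 10722 tested genes with an unadjusted p under 0.05 were 4.53%, 3.81% and 2.85% on the first scale. On the second they were 4.32%, 3.67% and 2.79%. DESeq2 called RHOB for WX-02-43 relative to other newly made RNA and CLDN4 between the probes scaled to all reads, and no other member in these 6. Over all genes 0.224%, 0.0933% and 0.0466% were called in the 3 comparisons on the first scale and 0.205%, 0.112% and 0.0653% on the second. In all reads 0.698% of genes were called for WX-02-23, 0.167% for WX-02-43 and 0.152% between the probes. No member was called against DMSO in all reads by edgeR, while DESeq2 called RHOB for WX-02-23. There the unadjusted edgeR p was under 0.05 for 5 of 34 members for WX-02-23, against 8.70% of 13178 genes. For WX-02-43 it was so for 9 of 34 members, against 5.86% of genes. Of the 34 members, 1 (CLDN4) was called between the probes.

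CLDN4 had 311, 274 and 319 CPM of all reads after WX-02-23 and 209.8, 187 and 222 CPM after WX-02-43. Each WX-02-23 library was above each WX-02-43 library, a log2 difference of 0.55 (SE 0.12, edgeR adjusted p = 0.0256). The DMSO libraries, at 207, 281 and 208 CPM, lay across both. The call was lost without WX-02-23 replicate 1 (0.139), WX-02-23 replicate 3 (0.241), WX-02-43 replicate 1 (0.118), WX-02-43 replicate 2 (0.341) or WX-02-43 replicate 3 (0.0779). In T>C reads scaled to T>C reads CLDN4 had 884, 629.9 and 819.6 CPM after WX-02-23 and 547, 514 and 542 CPM after WX-02-43, also without overlap, and the difference of 0.54 had an interval from 0.14 to 0.95 and no call after adjustment.

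RHOB was the member nearest to a call with both probes in all reads. Its all reads were 84.7, 95.9 and 91.6 CPM in DMSO, 114, 136 and 117 CPM after WX-02-23 and 111, 129 and 134 CPM after WX-02-43. Every probe library was above every DMSO library, with log2 changes of 0.43 and 0.46 (edgeR adjusted p = 0.167 and 0.283). Between the probes the RHOB difference was -0.03, with an interval from -0.29 to 0.24. PladB, given at 10 nM and not at 20 µM, stood at 0.74 for the same gene against the same DMSO libraries.

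ZXDB came nearest to a call for WX-02-23 in T>C reads, with 12.7, 20.3 and 41.1 CPM in DMSO, 90.5, 87.9 and 92.1 CPM after WX-02-23 and 68.9, 45.0 and 28.5 CPM after WX-02-43, scaled to T>C reads. The WX-02-23 libraries were tight and above DMSO, while those of WX-02-43 overlapped DMSO. Its log2 change for WX-02-23, 1.86 (interval 0.66 to 3.07), did not pass after adjustment (0.498), and the difference between the probes, 0.92, had an interval from -0.24 to 2.09. H1F0 had 93.0, 83.2 and 114 CPM of all reads after WX-02-23 and 65.4, 65.6 and 75.1 CPM after WX-02-43, groups without overlap. The H1F0 difference of 0.49 (interval 0.20 to 0.78) did not pass the test (edgeR adjusted p = 0.306).

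The other genes that rose after PladB were not called after either probe. H2AFX had 599, 682 and 613 CPM of T>C reads scaled to T>C reads after WX-02-23 and 339, 602 and 626 CPM after WX-02-43, where WX-02-43 replicate 1 was the low library. KTI12 had 58.6, 94.5 and 70.7 CPM and 80.7, 85.3 and 107 CPM, against 157, 89.6 and 164 CPM in DMSO. Its log2 changes were -0.88 and -0.59, below 0 and not called. EID1 was at 0.21 and 0.34, H1FX at 0.16 and 0.05, and PURB at 0.16 and 0.21. These changes share their DMSO libraries.

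The absence of calls does not show that the probes acted alike. For the difference between WX-02-23 and WX-02-43, the 95% interval lay within 1 log2 unit of 0 for 23 of 34 members in all reads and for 11 of 33 in T>C reads scaled to T>C reads. The median difference over the members was 0.00 in all reads and -0.06 in T>C reads scaled to T>C reads, beside 0.00 over all genes in both. The largest fitted differences rest on a handful of reads. KCTD12 had 0, 20 and 39 raw T>C reads after WX-02-23 and 1, 0 and 0 after WX-02-43, and FZD2 8, 70 and 14 and 0, 0 and 18. SOX21 had 33, 0 and 38 raw reads in DMSO, 5, 0 and 15 after WX-02-23 and 0, 0 and 33 after WX-02-43, with 0, 9 and 0 after PladB. In T>C reads of FZD2 and KCTD12 and in all reads of SOX21 no difference was detectable at this depth. FZD2 had more reads in all: 76, 83 and 84 raw reads in DMSO, 48, 70 and 57 after WX-02-23 and 18, 13 and 33 after WX-02-43. On the CPM scale of all reads it was at 4.28, 5.32 and 5.01 in DMSO, 2.15, 5.37 and 3.35 after WX-02-23 and 1.11, 0.768 and 1.98 after WX-02-43. Every WX-02-43 library was thus below every DMSO and every WX-02-23 library. Its log2 change for WX-02-43 against DMSO, -1.91 (interval -3.77 to -0.05), and the difference between the probes, 1.48 (interval -0.36 to 3.33), did not pass after adjustment (edgeR adjusted p = 0.846 and 0.968).

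**Figure D5:**
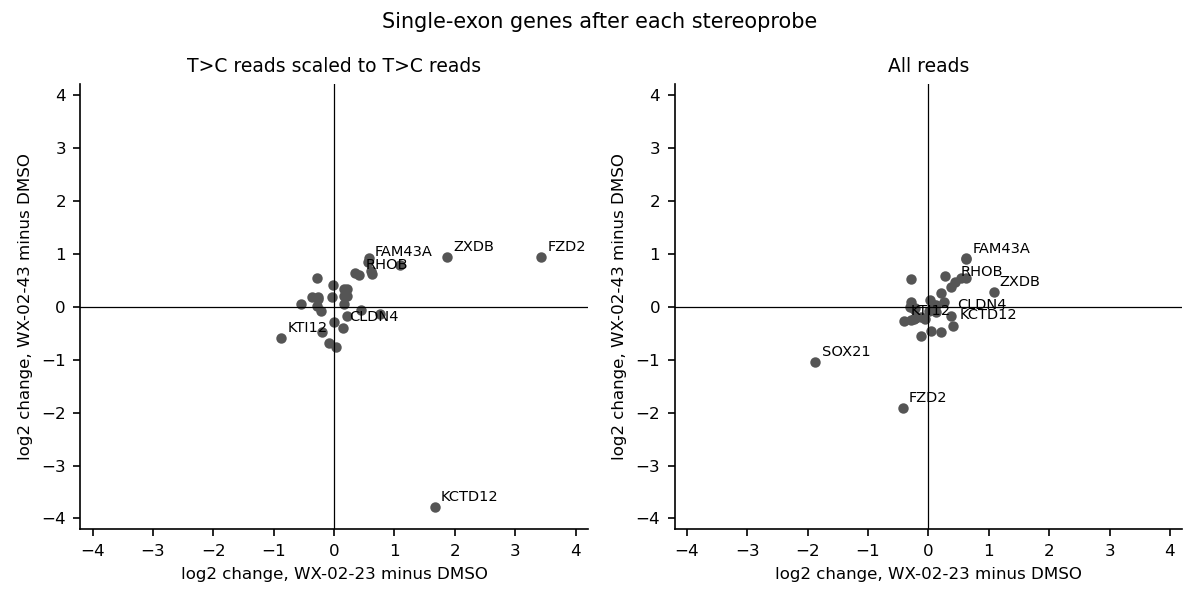
Log2 change of each tested member after WX-02-23 (horizontal axis) and WX-02-43 (vertical axis), both against the same DMSO libraries, in T>C reads scaled to T>C reads (left) and all reads (right). Points are genes, and those that stand out are named. Most members lie within 1 unit of 0 on both axes, and the far points FZD2, KCTD12 and SOX21 have few reads.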

How the data were processed

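SLAM-seq libraries of 12 samples, 3 in each of 4 groups by their labels, were analysed from the authors' deposited count tables. The authors used slamdunk 0.4.3 for mapping, filtering and counting, per the file headers, with curated RefSeq 3′ UTRs as intervals. The submitters' processing notes name hg19 as the build. The deposited columns hold raw counts of reads and of T>C reads per interval, counts of covered T positions and of conversions, and CPM. The CPM deposited by the authors served only to find library totals. The deposited conversion rate is a fraction, conversions over covered T positions, per the file headers; it was recomputed here from the 2 counts. The reads carry no molecular identifiers in these tables, so repeated copies of the same molecule cannot be told from separate molecules in the counts.

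Where intervals of a coding gene overlapped, only the interval with the most reads was kept, and intervals that did not overlap were summed. A read was thus not counted again in an overlapping interval of its gene. Of 45 names turned into dates, 44 were restored from their transcript accessions, and 24 chromosome Y intervals of genes shared with chromosome X were left out. The test was the quasi-likelihood test of edgeR 4.0.16 (R 4.3.3) on all 12 libraries, with no term but the group. Scaling was by TMM, low genes were removed with filterByExpr, and p-values were adjusted over all tested coding genes by Benjamini-Hochberg. The scripts were tested on simulated data. For T>C reads scaled to all reads, those data held no fall of T>C reads as a whole. Exon numbers came from GENCODE release 29, matched by name for 97.2% of genes. Only protein-coding transcripts were counted, so introns of a gene's noncoding transcripts were not looked for. Labelled shares of all coding genes were compared by exact two-sided permutation tests.

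The members, gene lists and tests were chosen with earlier results of these data known. Values in every library are given for members called in any of the 12 tests, for the 6 with the highest mean T>C CPM in DMSO, and for the member with the largest change in each comparison. Other members are given by log2 change or range. Alternatives were DESeq2 1.42.0, RLE factors, no filter on low counts, a plain sum of intervals, a replicate block, and leaving out each library. Genes with at least 100 T>C reads, and the split of single-exon genes by any intron, were added after the data were seen. Some markers of the labelled cell type are not reported here.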

Additional observations from a re-analysis of the deposited data

Results flagged for a closer look

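CLDN4 in all reads was the 1 result in which WX-02-23 and WX-02-43, given at the same dose and for the same time, differed by edgeR's test of the difference itself. The log2 difference, WX-02-23 minus WX-02-43, was 0.55 (edgeR adjusted p = 0.0256). Leaving out WX-02-23 replicate 2 kept the call, and leaving out any other of the 6 libraries ended it, with adjusted p from 0.0779 to 0.341. The same difference in T>C reads scaled to T>C reads was 0.54 and was not called by edgeR. In T>C reads scaled to all reads DESeq2 called it (0.62, DESeq2 adjusted p = 0.0247) and edgeR did not.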

How the results depend on the processing

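With DESeq2, members called were 11 (3 higher, 8 lower) for PladB in T>C reads scaled to all reads, where edgeR called 7, and 1 each for WX-02-43 in T>C reads scaled to T>C reads, between the probes in T>C reads scaled to all reads, and for WX-02-23 in all reads, where edgeR called 0. The 4 further calls for PladB were EID1 and H2AFX (higher) and CEBPD and FOXC1 (lower). With a plain sum of intervals the CLDN4 call between the probes in all reads was lost (0 members). Leaving out 1 library gave 3 to 8 members for PladB in T>C reads scaled to all reads, 0 to 1 for WX-02-23 in all reads (CLDN4, without DMSO replicate 2) and 0 to 1 between the probes in all reads. For CEBPD in all reads, which was not called, the log2 change of 0.01 after PladB turned to -0.03, -0.10 and -0.02 without DMSO replicate 1, PladB replicate 1 and PladB replicate 3, and was 0.12 without PladB replicate 2. The labelled share of all genes after WX-02-23 minus DMSO, 0.195 points, ran from -0.038 without DMSO replicate 2 to 0.385. CLDN4 for PladB in T>C reads scaled to T>C reads was called lower with RLE factors (adjusted p = 0.0455), with DESeq2 (0.0105) and without PladB replicate 3 (0.0237), but not in the test reported above. FOXD1 and KBTBD7 on that scale were not called with a plain sum (0.0541 and 0.0567), nor were H1F0 and ZXDB scaled to all reads (0.0542 and 0.0639), and ZXDB there was not called without the filter (0.0575). In all, the 9 higher calls in T>C reads scaled to T>C reads included 6 that stayed in every fit without 1 library (EID1, H1FX, H2AFX, PURB, RHOB and ZXDB), and 10 of the 11 higher calls in all reads did so.

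Over all tested genes, deviations of same-numbered libraries were hardly correlated (from -0.033 to 0.027), and the main test did not pair libraries by number. Whether same-numbered libraries shared a batch or culture cannot be told from these correlations. With a replicate block, members called for PladB were 10 (9 higher, 1 lower) in T>C reads scaled to T>C reads, 7 (0 higher, 7 lower) scaled to all reads, where the ZXDB call was lost (0.0607) and FOXC1 was called (0.0468), and 14 in all reads. Own-numbered libraries correlated best for 0 to 4 of 6 libraries in a comparison.

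Counts over all genes depended on the tool. In T>C reads scaled to T>C reads edgeR and DESeq2 called 1140 and 1961 genes for PladB, 24 and 69 for WX-02-23, 10 and 47 for WX-02-43, and 5 and 28 between the probes. Scaled to all reads the pairs were 1834 and 3025, 22 and 64, 12 and 42, and 7 and 39, and in all reads for the last 3 comparisons 92 and 146, 22 and 40, and 20 and 38. Without the filter, 16 genes for WX-02-43 and 8 between the probes were called on the first scale, and 140, 36 and 33 in all reads. With a plain sum, 13 and 2 genes were called on the first scale for WX-02-23 and between the probes, 11 and 3 on the second, and 53 and 12 in all reads. Leaving out a library gave as few as 12 and 1 on the first scale, 12 and 4 on the second and 41 and 7 in all reads for the same 2 comparisons, and 13 for WX-02-43 in all reads. Depth limits what T>C reads can show for FZD2, KCTD12, SOX11, SOX21, ZXDA and CITED4, each with under 50 T>C reads per library on average.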

Other observations

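The conversion rate, the share of covered T positions read as C, is a finer measure of label than the share of T>C reads. Its median over the 30 members with at least 100 reads was 2.09% in DMSO, 2.52% after WX-02-23, 3.18% after WX-02-43 and 1.18% after PladB. Over 9980 genes of that depth the medians were 0.628%, 0.700%, 0.801% and 0.212%. The medians for WX-02-43 were thus the highest on both, while its labelled share over all genes was not above DMSO. No test was made of these medians.

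KTI12 had the highest labelled share of the members in DMSO, at the 99.9th percentile of all genes, and its DMSO libraries spread from 63.4% to 95.4%. RHOB and CEBPD were at the 98.7th percentile. At the other end were H1FX and CLDN3, with shares of 8.54% and 8.56%. Their intervals held less T, 24.3% and 13.3%, than the members' median of 30.6%. By conversion rate in DMSO these genes were at 0.664% and 0.879%, above the all-gene median of 0.628%. EID1, at 0.612%, was the lowest of the 30 members on that measure.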
